A study of Mus musculus with 9 samples.

Results

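The direct antiviral effector genes were examined in mouse bone marrow-derived macrophages (BMDMs): Rsad2, Cmpk2, Mx1, Mx2, Samhd1, Isg20, Apobec3, Bst2, Ifi44 and Ifi27l2a. They were chosen by symbol, with earlier results of these data known, as interferon-induced genes whose products act on viruses or viral nucleic acid. Each matched 1 of the 55335 genes in the expression table. BMDMs are macrophages that form in culture when marrow cells are given M-CSF. Here they came from wild-type male C57BL/6 mice aged 4 to 6 weeks and were kept for 5 days in 20 ng/mL M-CSF. The study compared 3 groups of 3 RNA-seq libraries, all at 6 h. Control cells received culture medium alone. Model cells received 1 µg/mL lipopolysaccharide (LPS) and 30 ng/mL interferon-γ (IFN-γ). M+AnxA5 cells received the same LPS and IFN-γ together with recombinant annexin A5 (AnxA5), a protein that binds phosphatidylserine, at 2 µg/mL. No group received AnxA5 without LPS and IFN-γ, and AnxA5 was added as protein, so no transcript checks that label. The comparisons ask which effector genes the stimulus raised and whether AnxA5 changed them in stimulated cells.

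LPS is sensed by Toll-like receptor 4, which induces interferon-β through the adaptor TRIF and IRF3. Secreted interferon-β then acts on the type I receptor, whose JAK kinases activate the factor ISGF3, and ISGF3 binds the interferon-stimulated response element (ISRE) of antiviral genes. IFN-γ signals through its own receptor to the gamma-activated site (GAS), so a macrophage given both agents receives both signals. The effectors act at different steps of infection: on the nucleotide pool, on incoming viral particles, on viral nucleic acid and on budding virions.

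Levels are given as FPKM, sequenced fragments scaled to the length of the gene and the size of the library. The depth estimated from the steps between low values was 27.2 to 29.9 M fragments in Control, 27.2 to 32.1 M in Model and 25.9 to 36.1 M in M+AnxA5. All 8 macrophage markers were present in every group, with a summed level of 13269 to 14356 FPKM in Control, 7738 to 8654 in Model and 6922 to 7811 in M+AnxA5. Lyz2 made up most of this sum, at 11464 to 12608 FPKM in Control and 6045 to 6944 in Model. Cd68, Csf1r and Itgam were also lower in every Model library, while Adgre1 (311 to 350 FPKM in Control, 582 to 621 in Model), Fcgr1, Mertk and Cd14 were higher in every one. Markers of T cells, NK cells, plasmacytoid dendritic cells and erythroid cells were each under 1 FPKM in every library, and those of B cells and mast cells summed to at most 2.52 and 1.03 FPKM. The 7 neutrophil markers summed to 183 to 252 FPKM in Control, 222 to 299 in Model and 256 to 267 in M+AnxA5. S100a8 and S100a9 made up most of this sum. S100a8 and Camp were higher in every Model library than in any Control library, while Mpo, Elane and Retnlg were lower. Ly6g was at most 0.11 FPKM in any library. The 4 stromal markers summed to 92.2 to 153 FPKM in Control, 71.3 to 108 in Model and 60.8 to 108 in M+AnxA5. The 4 conventional dendritic cell markers summed to 0.313 to 0.541 FPKM in Control, 12.8 to 14.5 in Model and 11.5 to 13.1 in M+AnxA5. Of these, Xcr1 went from at most 0.10 FPKM in Control to at least 4.48 in Model and Clec9a from at most 0.44 to at least 8.20, while the defining markers Flt3 and Zbtb46 stayed under 0.25 FPKM in every library. The part of other cell types in the results was not tested. In bulk RNA, fewer cells with a transcript and less of it per cell cannot be told apart. Whether the 3 libraries of a group were separate cultures or mice is not in the labels. The p-values therefore rest on the spread between libraries, which could be technical only.

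Stretches around the ISRE and GAS matches of 4 genes are shown because these are the elements through which both stimuli are known to reach this kind of gene. RefSeq windows from 250 bases before to 50 bases after the gene start were at hand for 7 of the 10 genes (Rsad2, Cmpk2, Bst2, Samhd1, Isg20, Apobec3 and Ifi44). The sequences below read 5′ to 3′ along the gene's own strand in GRCm38.p6, and capitals mark the ISRE or GAS letters.
Rsad2, chr12:26456528-26456607, minus strand: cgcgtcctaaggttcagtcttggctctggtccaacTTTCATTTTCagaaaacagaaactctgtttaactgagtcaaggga
Bst2, chr8:71537552-71537643, minus strand: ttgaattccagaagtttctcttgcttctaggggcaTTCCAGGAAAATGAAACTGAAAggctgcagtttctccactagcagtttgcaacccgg
Samhd1, chr2:157135288-157135346, minus strand: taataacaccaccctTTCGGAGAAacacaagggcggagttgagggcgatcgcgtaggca
Isg20, chr7:78913316-78913394, plus strand: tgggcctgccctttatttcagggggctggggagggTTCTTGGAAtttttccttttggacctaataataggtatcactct

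The ISRE was searched as GAAANNGAAA and the GAS as TTCNNNGAA, on both strands. The ISRE letters stood in the windows of Rsad2, Bst2 and Apobec3, which is 3 of 7 genes, and in 3.99% of all 27025 genes with a window. The stretch of Apobec3 is not printed, since annotated exons overlap it. In Rsad2 the letters read on the opposite strand, so the capitals show their reverse complement. Bst2 held 2 overlapping ISRE matches, the first of which also overlapped a GAS match, so the capitals there mark all of them in 1 run. The GAS letters stood in the windows of Bst2, Samhd1 and Isg20, again 3 of 7, and in 9.55% of all genes. An NF-κB motif searched as GGGNNNNNCC stood in 5 of the 7 windows (Rsad2, Bst2, Cmpk2, Isg20 and Apobec3), and in 53.5% of all genes. These matches are letters in a short window and say nothing about binding.

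In unstimulated macrophages the effector genes spanned a 188-fold range of level per length. Bst2 was highest at 90.8 ± 5.01 FPKM (SD, n = 3), followed by Ifi27l2a at 44.4 ± 9.63 and Samhd1 at 29.6 ± 1.91. Rsad2, Mx1, Cmpk2 and Apobec3 lay between 1.78 and 3.44 FPKM on average, and Isg20, Mx2 and Ifi44 under 1 FPKM. The libraries of Cmpk2 and Apobec3 overlapped in this order, as did those of Mx2 and Ifi44, while every other pair of neighbours stood apart. At the estimated depth the Control level of Ifi44 rested on roughly 30 to 55 fragments per library, that of Isg20 on 24 to 31 and that of Mx2 on 41 to 49. These rough numbers take the longest annotated transcript as the gene length, coding transcripts only for coding genes. Isg20, Mx2 and Ifi44 reached the 1 FPKM filter for testing only through the stimulated libraries. Their tests against Control are therefore not independent of that filter, and their p-values in those comparisons are given as description.

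Stimulation with LPS and IFN-γ raised the level of all 10 effector genes, and for each of them every Model library lay above every Control library. The share of all genes separated in this way was not counted for the comparisons with Control. Differences are given as log2FC, the difference between group means of log2(FPKM + 1), and a gene was called when the fold exceeded 1.2 and the adjusted p was under 0.05 (limma, Benjamini-Hochberg over the 11657 genes tested). Over all genes, 16.5% were called higher in Model than in Control and 60.3% lower, and the median log2FC was -0.45. The median over the effector genes was 3.996. Since these genes were chosen as interferon-induced, their contrast with all genes is description only. Because the added 1 FPKM shrinks the log2FC of genes that are low in Control, ratios of mean FPKM are given beside it. The spread in size was wide, from a 175-fold ratio of mean FPKM for Rsad2 to 3.29-fold for Ifi27l2a. In the Model group the order of levels became Rsad2, Bst2, Mx1, Samhd1, Cmpk2, Ifi27l2a, Ifi44, Mx2, Isg20 and Apobec3, with no overlap between the libraries of any neighbours. The range narrowed to 60.4-fold, and 6 of the genes exceeded 100 FPKM on average, where none had in Control. Rsad2 reached the 63rd highest mean of all tested genes in Model, from the 7897th in Control.

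**Figure D1:**
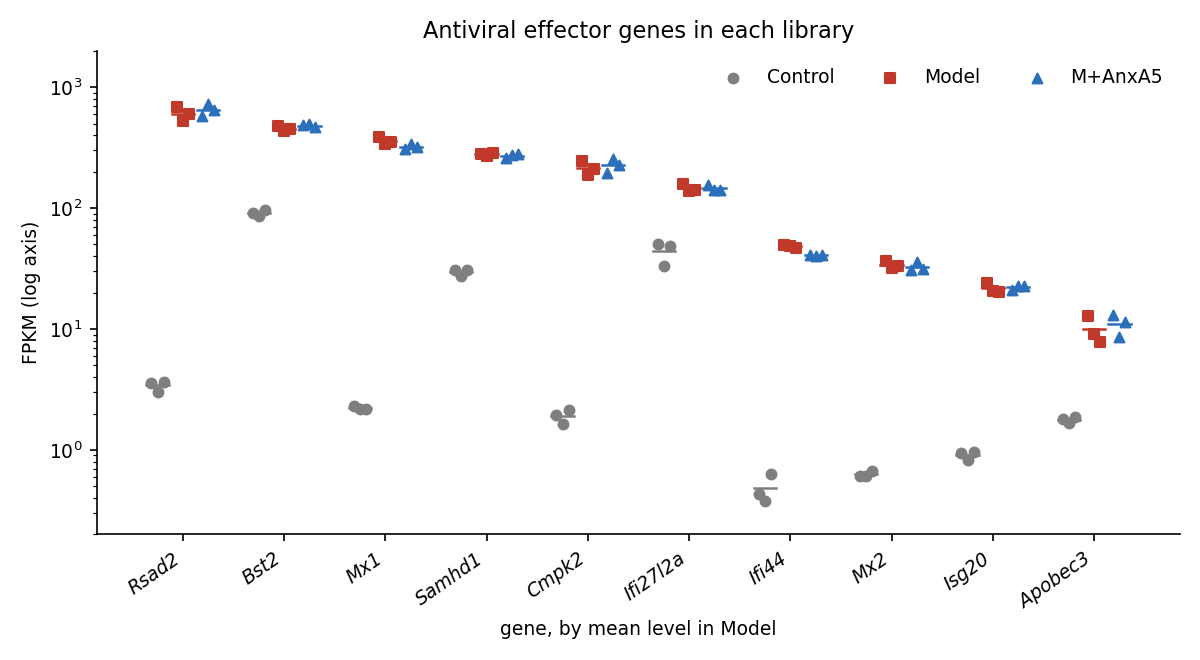
FPKM of the 10 effector genes in each library, on a log axis, with the genes ordered by their mean in Model. Points are libraries (3 per group) and short lines are group means. All 10 genes were higher in every Model and M+AnxA5 library than in any Control library, and the lowest Control levels were those of Ifi44, Mx2 and Isg20.

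The pair Rsad2 and Cmpk2 acts on nucleotides. Rsad2 encodes viperin, a radical SAM enzyme that makes a chain-terminating analogue of CTP, and Cmpk2 encodes a mitochondrial nucleotide kinase that supplies CTP precursors. They lie head to head on chromosome 12 with no annotated gene in the 12751 bases between them (Rsad2 at chr12:26442746-26456452, minus strand, and Cmpk2 at chr12:26469204-26479837, plus strand, GRCm38). Rsad2 stood at 3.61, 3.04 and 3.67 FPKM in Control cells and at 686, 521 and 600 FPKM in Model cells. It thereby passed from a low to a very abundant transcript, with a log2FC of 7.08 ± 0.11 (SE, adjusted p = 1.19e-10). Cmpk2 measured 1.95, 1.65 and 2.16 FPKM in Control and 247, 189 and 212 FPKM in Model. Its log2FC was 6.21 ± 0.12 (adjusted p = 3.87e-10), a 113-fold ratio of mean FPKM. Both genes were lowest in replicate 2 and highest in replicate 1 within the Model group. The ratio of Rsad2 to Cmpk2 was 1.70 to 1.85 in Control and 2.76 to 2.83 in Model, so the Rsad2 level rose by the larger factor.

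Mx1 and Mx2 encode dynamin-like GTPases that trap viral ribonucleoproteins and capsids. The C57BL/6 strain carries an Mx1 allele that makes no functional protein, and GENCODE annotates Mx2 as a polymorphic pseudogene, so these are transcript levels and not a measure of Mx activity. Both genes lie on chromosome 16, 72400 bases apart with 4 annotated genes between them (Mx1 at chr16:97447035-97462907, minus strand, and Mx2 at chr16:97535308-97560900, plus strand). Mx1 measured 2.32, 2.18 and 2.17 FPKM in Control and 391, 339 and 349 FPKM in Model. With a log2FC of 6.80 ± 0.06 (adjusted p = 3.88e-12) and a 162-fold ratio, its rise was close in size to that of Rsad2 with less spread. Mx2 measured 0.604, 0.609 and 0.667 FPKM in Control and 36.8, 32.1 and 33.4 FPKM in Model. Its log2FC was 4.43 ± 0.07 (adjusted p = 1.32e-10), a 54.4-fold ratio of mean FPKM. Mx1 exceeded Mx2 by a ratio of 3.26 to 3.84 in Control and 10.5 to 10.6 in Model.

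**Figure D2:**
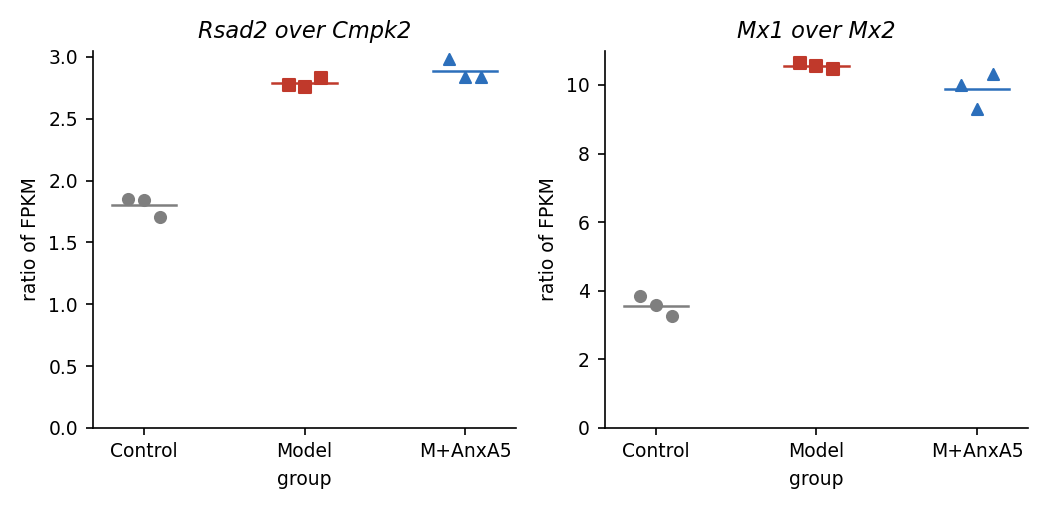
Ratio of FPKM within each library for Rsad2 over Cmpk2 (left) and Mx1 over Mx2 (right). Points are libraries and lines are group means. Both ratios were higher in all stimulated libraries than in Control, at 1.70 to 1.85 against 2.76 to 2.99 and at 3.26 to 3.84 against 9.31 to 10.6.

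Samhd1, Isg20 and Apobec3 act on nucleic acids or their building blocks. Samhd1 encodes the dNTP triphosphohydrolase that starves reverse transcription in non-dividing cells (chr2:157097533-157135265, minus strand). It was already well expressed at 30.9, 27.4 and 30.6 FPKM in Control, and reached 282, 272 and 288 FPKM in Model. Its log2FC of 3.20 ± 0.05 (adjusted p = 1.32e-10) was a 9.46-fold ratio of mean FPKM. Isg20 encodes an exonuclease with a preference for single-stranded RNA (chr7:78913424-78920396, plus strand). It measured 0.952, 0.827 and 0.958 FPKM in Control and 24.1, 20.7 and 20.2 FPKM in Model. The log2FC was 3.56 ± 0.07 (adjusted p = 4.39e-10) and the ratio of mean FPKM 23.7-fold.

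Apobec3 encodes the cytidine deaminase that enters retroviral particles, and mice have a single such gene (chr15:79891659-79915906, plus strand). It measured 1.81, 1.66 and 1.87 FPKM in Control and 12.9, 9.18 and 7.85 FPKM in Model, the lowest of the effector genes after stimulation. Its Model libraries were also the most scattered, with an SD of 26.1% of the mean against 2.26% to 13.7% for the other effector genes. The log2FC was 1.96 ± 0.18 (adjusted p = 6.39e-06), a 5.60-fold ratio of mean FPKM. The annotated gene overlaps D730005E14Rik on the same strand, which was listed at 0.047 to 0.105 FPKM in Control and 1.11 to 1.46 FPKM in Model. It also overlaps Cbx7 on the opposite strand, at 1.13 to 1.23 FPKM in Control and 0.104 to 0.282 FPKM in Model. The libraries mark strand but whether the counting used it is not given in the sources used here. Strand could separate Apobec3 from Cbx7 but not from D730005E14Rik, so the Apobec3 values are uncertain to that extent.

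Bst2 encodes tetherin, which holds budding enveloped virions at the cell surface (chr8:71534255-71537456, minus strand). It measured 90.6, 85.8 and 95.8 FPKM in Control and 473, 431 and 449 FPKM in Model. From the highest base of the effector genes it rose 4.97-fold by mean FPKM, a log2FC of 2.30 ± 0.05 (adjusted p = 9.96e-10). Rsad2 overtook it on stimulation, so that Bst2 stood second in the Model group.

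Ifi44 and Ifi27l2a encode interferon-induced proteins whose action on viruses is less well defined, the first cytoplasmic and the second a small hydrophobic protein of the Ifi27 family. Ifi44 (chr3:151730922-151749960, minus strand) had the lowest Control level, at 0.432, 0.378 and 0.636 FPKM, and reached 49.2, 48.4 and 47.0 FPKM in Model. The Model libraries agreed closely while the Control libraries did not, and the ratio of FPKM ran from 73.9-fold to 130-fold over pairs of libraries. On the log2 scale the difference was 5.06 ± 0.06 (adjusted p = 2.91e-11), and 6.40 with 0.1 FPKM added in place of 1. With 0.1 FPKM added, the log2FC of Mx2 was 5.55 and that of Isg20 4.42, so the sizes given for these low genes depend on that choice. Ifi27l2a (chr12:103442167-103443680, minus strand) measured 50.8, 33.3 and 49.0 FPKM in Control and 157, 139 and 140 FPKM in Model. Its log2FC of 1.72 ± 0.14 (adjusted p = 3.54e-06) was the smallest among the effector genes.

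Together the effector genes made up 0.0486% to 0.0614% of the summed FPKM of a library in Control and 0.669% to 0.802% in Model. All 10 stayed called as higher in each of the 25 other settings tried, scalings included. Scaling did move the background: 78.5% of all calls were lower in Model with the deposited scaling, 67.8% with upper-quartile scaling and 58.8% with quantile scaling, where the median log2FC of all genes was -0.24 and -0.10. The median over the effector genes was 4.16 and 4.23 under these scalings.

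Addition of AnxA5 left none of the 10 effector genes called, in either direction. Over all genes, 1.95% were called higher and 0.815% lower in M+AnxA5 than in Model, 322 genes in all, so a count of 0 among 10 genes was near that background. Leaving out Model replicate 2 cut the total to 139 and leaving out Model replicate 3 to 190. It was 156 when M+AnxA5 replicate 2 was dropped and 120 when replicate 3 of that group was. The median log2FC was 0.02 over the effector genes and -0.02 over all genes. By limma, 2 effector genes had an unadjusted p under 0.05, Ifi44 and Mx1, both with lower levels in M+AnxA5. Of all 11657 genes tested, 1985 had an unadjusted p under 0.05, a share near that of the effector genes. For Ifi44 and Mx1, every M+AnxA5 library lay below every Model library, which was also so for 14.2% of all genes, while 10.6% of all genes lay entirely higher.

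Ifi44 measured 49.2, 48.4 and 47.0 FPKM in the Model libraries and 40.8, 40.5 and 40.6 FPKM in the M+AnxA5 libraries. The libraries of both groups were tight and did not overlap, and the means differed by -15.7% of the Model mean. The log2FC was -0.24 with a 95% interval of -0.38 to -0.10 (adjusted p = 0.0902 by limma), a fold of 0.85. Over the alternative settings the log2FC of Ifi44 lay between -0.26 and -0.23 and its adjusted p between 0.0240 and 0.393. It passed 0.05 with quantile scaling (0.0435), in a fit of the 6 stimulated libraries alone (0.0240) and without Control replicate 3 (0.0264), but its fold stayed under the threshold of 1.2 in these and all other settings. Mx1 measured 391, 339 and 349 FPKM in Model and 306, 336 and 322 FPKM in M+AnxA5. The highest M+AnxA5 library nearly reached the lowest Model library, and the log2FC was -0.16 with an interval of -0.30 to -0.02 (adjusted p = 0.219 by limma).

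**Figure D3:**
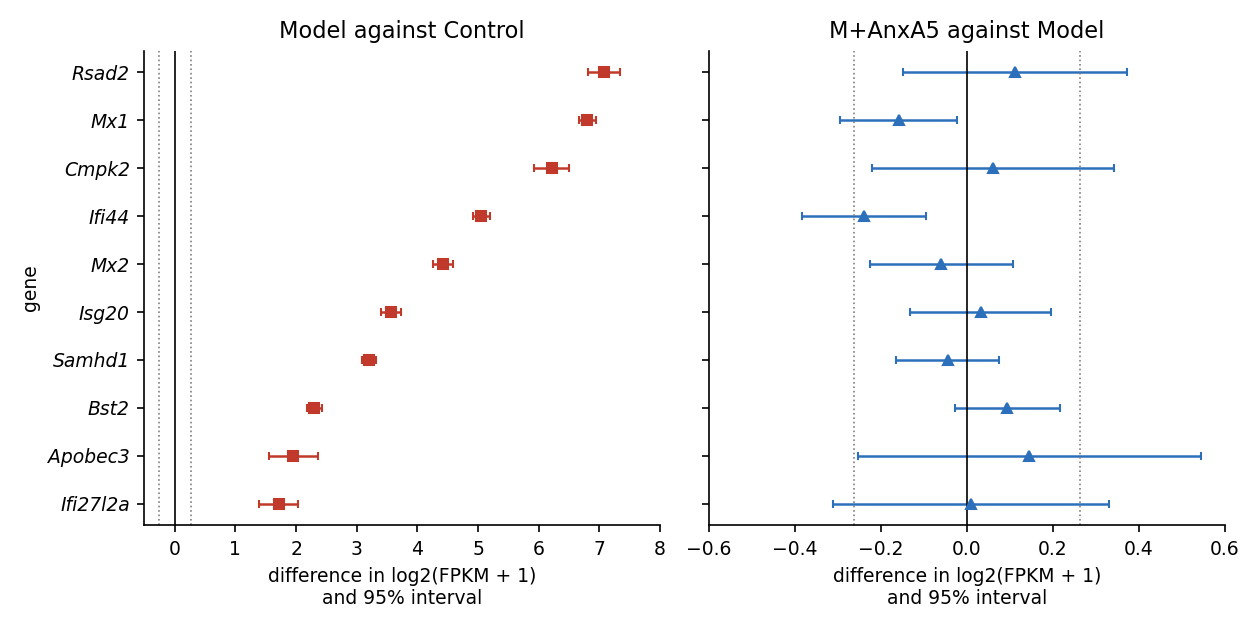
Difference in mean log2(FPKM + 1) with its 95% interval for each effector gene, for Model against Control (left) and M+AnxA5 against Model (right, on a narrower axis). Dotted lines mark a fold of 1.2 either way. The left panel runs from 1.72 to 7.08, while in the right panel all estimates lie between -0.24 and 0.15 and only the intervals of Ifi44 and Mx1 leave out 0.

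The other 8 genes overlapped between Model and M+AnxA5. Rsad2 measured 686, 521 and 600 FPKM in Model and 577, 724 and 646 FPKM in M+AnxA5. Its log2FC of 0.11 had an interval of -0.15 to 0.37, which in folds is 0.90 to 1.29. Cmpk2 measured 247, 189 and 212 FPKM in Model and 193, 255 and 228 FPKM in M+AnxA5. Its log2FC of 0.06 had an interval of -0.22 to 0.34. The values of both genes are arranged alike, with replicate 2 lowest in Model and highest in M+AnxA5. When the 3 libraries numbered 2 were left out, a step added once the values were known, the log2FC turned to -0.07 for Rsad2 and -0.12 for Cmpk2.

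Bst2 measured 487, 492 and 464 FPKM in M+AnxA5, with a log2FC of 0.09 (interval -0.03 to 0.22). Samhd1 measured 262, 276 and 278 FPKM in M+AnxA5, with a log2FC of -0.04 (interval -0.16 to 0.08). For Bst2, M+AnxA5 replicates 1 and 2 lay above every Model library (431 to 473 FPKM) and replicate 3 within their range. For Samhd1, M+AnxA5 replicate 1 lay below every Model library (272 to 288 FPKM) and replicates 2 and 3 within their range. Mx2 measured 30.7, 36.1 and 31.2 FPKM in M+AnxA5, with a log2FC of -0.06 (interval -0.23 to 0.11). Isg20 measured 20.9, 22.7 and 22.7 FPKM in M+AnxA5, with a log2FC of 0.03 (interval -0.13 to 0.20). For the 4 genes Bst2, Samhd1, Mx2 and Isg20 the whole interval lay within a fold of 1.2 either way.

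Ifi27l2a measured 155, 142 and 142 FPKM in M+AnxA5, nearly the values of the Model libraries, with a log2FC of 0.01 (interval -0.31 to 0.33). Apobec3 measured 13.0, 8.65 and 11.5 FPKM in M+AnxA5, with a log2FC of 0.15. The Apobec3 interval was the widest, from -0.25 to 0.55, or folds of 0.84 to 1.46. The intervals of Rsad2, Cmpk2 and Apobec3 reached past a fold of 1.2 upwards, those of Mx1 and Ifi44 downwards and that of Ifi27l2a both ways, so a difference of that size in that direction lies within the interval for these 6 genes. Those of Mx1 and Ifi44 left out 0, the others did not.

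The ribosomal genes Gm23935 and AY036118 held their highest share of summed FPKM in the libraries numbered 2 of each group. It was 7.47% in Control, 3.16% in Model and 3.59% in M+AnxA5, against 0.530% to 2.85% in the others. Replicate 2 was the lowest of its group for 8 of the 10 effector genes in Control and 7 in Model, and the highest for 6 in M+AnxA5. The part of this share in the results was not tested.

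**Figure D4:**
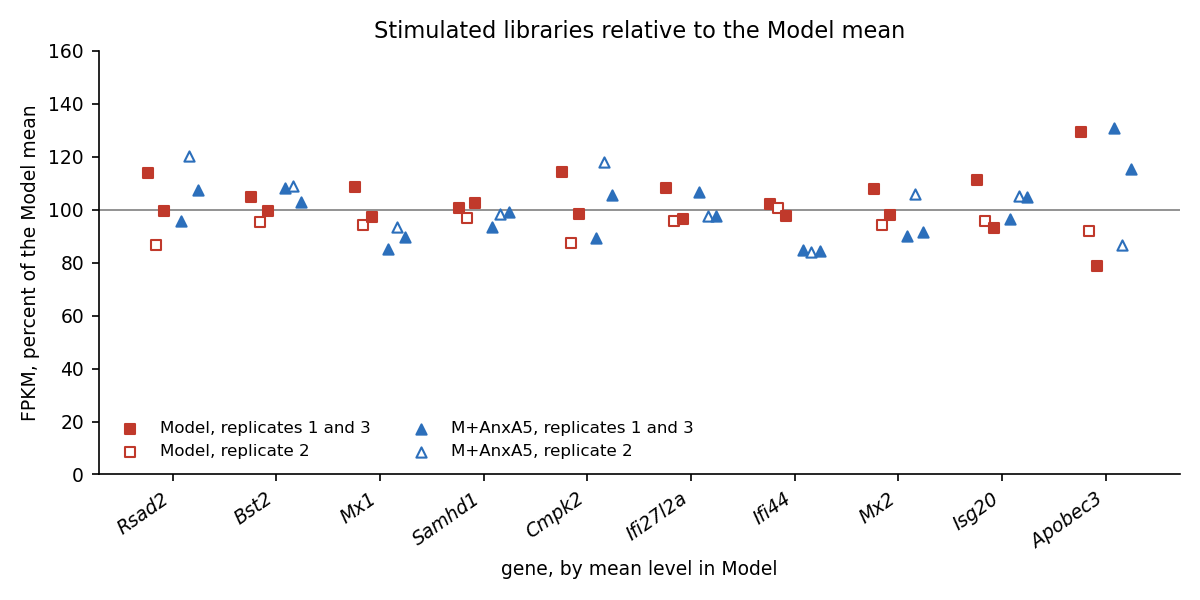
FPKM of each effector gene in the 6 stimulated libraries as a percent of its mean in Model. Squares are Model and triangles M+AnxA5, and open symbols mark replicate 2. Ifi44 lies at 84.0% to 84.7% in all M+AnxA5 libraries, Mx1 at 85.2% to 93.5%, and the other genes overlap the Model libraries.

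Against Control, all 10 effector genes were called higher in M+AnxA5, beside 16.4% of all genes, and the order of their levels was that of the Model group. The log2FC ran from 1.73 for Ifi27l2a to 7.19 for Rsad2, with ratios of mean FPKM of 3.31-fold and 189-fold. This comparison shares its Control libraries with that of Model and is not independent of it. The effector genes made up 0.709% to 0.774% of the summed FPKM in M+AnxA5. The ratio of Rsad2 to Cmpk2 was 2.83 to 2.99 in M+AnxA5, just above the Model libraries, and that of Mx1 to Mx2 was 9.31 to 10.3, below them. These differences in ratio were not tested.

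The genes that lead to the effectors were read from lists of the interferon pathway. Counts of list genes that rose or fell are counts of genes called. Over all genes, 16.5% were called higher in Model than in Control and 60.3% lower. Of 16 type I interferon genes none reached the level for testing. Ifnb1, the interferon-β gene, was the highest of them on average, at 0.016 FPKM in Control, 0.367 in Model and 0.297 in M+AnxA5. Of 10 receptor, JAK kinase and ISGF3 genes, 6 rose and 2 fell in Model. Stat2, a subunit of ISGF3, rose from 9.01 ± 0.62 to 69.1 ± 1.32 FPKM and the kinase gene Jak2 from 11.0 ± 0.77 to 98.7 ± 7.07 FPKM. Ifngr1, the ligand-binding chain of the IFN-γ receptor, fell from 48.6 ± 2.93 to 8.35 ± 0.81 FPKM (log2FC -2.41, adjusted p = 4.23e-09).

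With AnxA5 none of these 10 genes was called. Jak2 measured 94.4 ± 2.38 FPKM in M+AnxA5. Jak1, named after its values were seen, had an adjusted p of 0.0290 at a fold under 1.2, with 41.6 ± 0.63 FPKM in Model and 47.7 ± 1.36 in M+AnxA5. Of 6 tested genes for other interferon regulatory factors, 5 rose and 1 fell in Model. Irf7, which amplifies interferon-α transcription, rose from 4.92 ± 0.43 to 207 ± 3.53 FPKM, and Irf1 from 10.7 ± 2.22 to 162 ± 54.1 FPKM. Irf8, a factor of the myeloid lineage that IFN-γ induces, rose from 19.2 ± 1.64 to 66.0 ± 2.74 FPKM. Irf2, which competes with Irf1 for DNA, rose from 7.66 ± 0.66 to 13.6 ± 0.28 FPKM.

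Irf8 was the single gene of these lists called with AnxA5. Over all genes, 1.95% were called higher and 0.815% lower, so a single call in lists of this size is near that background. All 6 tested genes for other interferon regulatory factors had a log2FC below 0 with AnxA5, up to -0.09 for Irf5. Their median was -0.19, beside -0.02 over all genes, and the list was not tested as a set. Irf8 measured 69.2, 64.3 and 64.6 FPKM in Model and 48.2, 47.7 and 47.3 FPKM in M+AnxA5. The groups stood well apart, with a log2FC of -0.46 ± 0.06 (adjusted p = 0.00559). Without the 3 libraries numbered 2 the size was kept at -0.48 but the adjusted p was 0.120, with 4 stimulated libraries left.

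Of 7 genes that restrain interferon signalling, 5 rose and 2 fell in Model, and none was called with AnxA5. Usp18, which blocks the type I receptor, rose from 1.93 ± 0.10 to 166 ± 10.8 FPKM and measured 166 ± 9.12 in M+AnxA5. The inhibitors of JAK kinases Socs1 and Socs3 rose from 0.642 ± 0.26 to 153 ± 4.22 and from 1.22 ± 0.13 to 101 ± 4.75 FPKM. Socs1 reached 1 FPKM only in stimulated libraries, so its call against Control is not independent of the filter for testing. Ptpn2, a phosphatase of JAK kinases, rose from 7.30 ± 0.16 to 15.9 ± 0.81 FPKM. The genes that fell, named after their values were seen, were Pias1, from 10.5 ± 0.35 to 6.43 ± 0.54 FPKM, and Pias3, from 4.38 ± 0.33 to 2.00 ± 0.42 FPKM, both for inhibitors of activated STAT proteins.

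Of 29 other interferon-induced antiviral genes tested, 28 rose in Model, with a median log2FC of 2.82, and none was called with AnxA5, where they ran from -0.16 to 0.20. The guanylate-binding protein genes Gbp2 and Gbp5 rose from 3.34 ± 0.45 to 2137 ± 51.2 and from 0.183 ± 0.04 to 324 ± 4.97 FPKM. Gbp5, Ifitm1, Ifitm6 and Ifit1bl1 reached 1 FPKM only in stimulated libraries, so their calls against Control are not independent of the filter for testing. Ifit3, whose product helps to bind foreign RNA, rose from 6.52 ± 0.40 to 404 ± 40.2 FPKM, and the GTPase gene Irgm1 from 7.29 ± 0.15 to 127 ± 1.84 FPKM.

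Of 11 listed relatives of the effector genes by family, 7 were tested. None was called higher and 4 were called lower in Model, a share near the 60.3% of all genes called lower. Ifi27, the relative of Ifi27l2a, fell from 37.2 ± 1.89 to 12.0 ± 1.04 FPKM, a log2FC of -1.56 (adjusted p = 3.53e-08). Apobec1, the cytidine deaminase that edits apolipoprotein B mRNA, fell from 88.9 ± 5.47 to 49.6 ± 7.08 FPKM. The dynamin gene Dnm2 fell from 32.5 ± 0.54 to 25.5 ± 0.32 FPKM, and Isg20l2, a nucleolar exonuclease gene, from 8.94 ± 0.56 to 5.88 ± 0.30 FPKM. Dnm2 was not called with upper-quartile scaling and Isg20l2 not with quantile scaling. None of the 7 was called with AnxA5.

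Samhd1 consumes dNTPs, and the genes that supply nucleotides were listed beside it. Of 20 tested genes for deoxynucleotide and pyrimidine supply, 17 fell and 1 rose in Model, with a median log2FC of -1.13 beside -0.45 over all genes, of which 60.3% were called lower. With quantile scaling 14 fell and 2 rose, beside 4209 of all 11657 genes called lower. Rrm2 and Rrm1, the subunits of ribonucleotide reductase, fell from 13.7 ± 1.07 to 0.798 ± 0.17 and from 7.52 ± 0.57 to 1.197 ± 0.04 FPKM. Dut, the dUTPase gene, fell from 6.57 ± 0.57 to 0.560 ± 0.06 FPKM. Rrm2, Dut, Tyms and Dhodh reached 1 FPKM only in Control libraries, so their calls against Control are not independent of the filter for testing. With any 1 Control library left out, 16 genes of this list were tested, of which 13 fell and 1 rose in Model. The gene that rose was Dck, for the salvage enzyme deoxycytidine kinase, from 15.3 ± 1.61 to 92.9 ± 4.28 FPKM. None of the 20 was called with AnxA5, and Dck measured 86.7 ± 1.34 FPKM there.

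**Figure D5:**
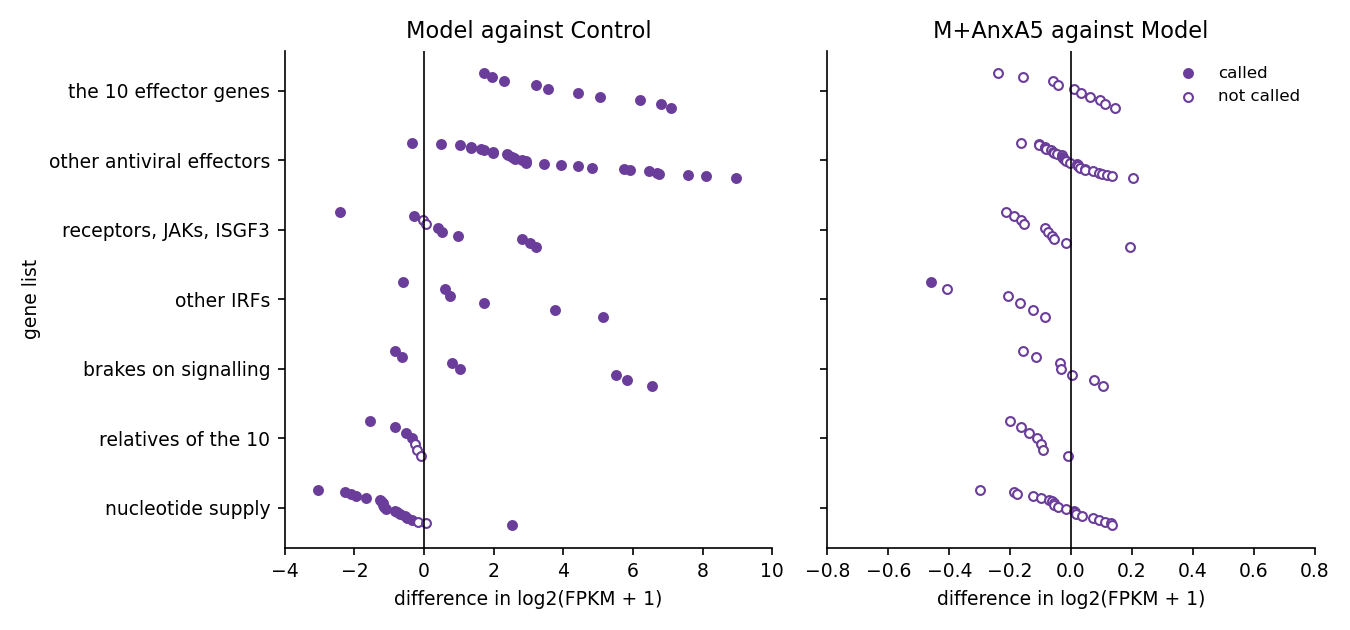
Difference in mean log2(FPKM + 1) of every tested gene of each list, for Model against Control (left) and M+AnxA5 against Model (right, on a narrower axis). Filled points were called (fold over 1.2 and adjusted p under 0.05). On the left all 10 effector genes and 28 of the 29 other antiviral genes are filled and higher, while 17 of 20 nucleotide supply genes are filled and lower. On the right Irf8 is the single filled point.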

How the data were processed

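RNA-seq of mouse BMDMs was analysed in 3 groups of 3 libraries, grouped by the sample labels. Poly(A) RNA libraries that mark strand were sequenced as paired ends. The authors deposited FPKM per gene, computed by a sequencing company. The submitters' processing notes name cutadapt 1.9, STAR, StringTie 2.1.6, DESeq2, edgeR and mm10, with no role or order. The FPKM are not counts: 24.5% to 28.6% of low values lay within 0.03 of a whole fragment, so fragments were not recovered and no count model was run.

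The test was limma 3.58.1 (R 4.3.3) on log2(FPKM + 1) of every gene that reached 1 FPKM in 3 or more of the 9 libraries, all libraries in 1 fit without a replicate block, with a mean-variance trend and Benjamini-Hochberg adjustment over the 11657 genes. Thresholds are those of the study's methods. A fold on this scale understates low genes. The procedure was also tested on simulated data, in which Control and Model did not differ and the noise was independent between libraries. No conclusion about these data is drawn from that. Gene positions are from GENCODE M21 (GRCm38, the same assembly as mm10), which held 55154 of the 55335 gene IDs; sequences are from RefSeq. The AnxA5 dose is that given for the RNA-seq experiment in the study.

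The effector genes and lists were chosen with earlier results of these data known. All 10 effector genes are named. Of each list, up to 4 called genes with the lowest adjusted p are named, or otherwise the highest in mean FPKM, and every list gene called with AnxA5. The symbol Shfl had no match. The results of some list genes are not reported here. There were 25 alternatives: other pseudocounts, filters, scalings, limma options and fold thresholds, the replicate block, a fit of 6 libraries and leaving out libraries.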

Additional observations from a re-analysis of the deposited data

How the results depend on the processing

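The number of effector genes called (10, 0 and 10 in Model against Control, M+AnxA5 against Model and M+AnxA5 against Control) was the same in all 25 alternatives. The count of all genes called in M+AnxA5 against Model, 322, was 167 with no filter on low values, 79 at a fold of 1.5, 8 at a fold of 2, 120 to 356 with 1 replicate left out and 13 without the 3 libraries numbered 2. With the replicate number as a block (replicate block) it was 185. Same-numbered libraries correlated at 0.0156 to 0.206 in their deviations from the group means, above 0.1 in 3 of 9 pairs. Libraries of different groups and numbers correlated at -0.232 to 0.0993. What the numbers share is not in the labels, so the main fit left them out. Whether they pair the libraries was not settled. For Model against Control the count of 8949 fell to 4410 with a filter at a mean of 5 FPKM and 2944 at a fold of 2, and for M+AnxA5 against Control the count of 9031 fell to 4481 and 2898. These follow from fewer genes tested or a higher threshold. In M+AnxA5 against Model, leaving out 1 replicate gave log2FC ranges of -0.0321 to 0.1667 for Cmpk2, -0.0332 to 0.0659 for Ifi27l2a and -0.0152 to 0.1077 for Isg20, which all span 0. Without the libraries numbered 2, the log2FC was -0.0707 for Rsad2, -0.1242 for Cmpk2 and -0.0176 for Isg20. The cause of these changes was not tested. By the rough fragment estimates, depth limits the Control values of Ifi44, Isg20 and Mx2 most among the effector genes.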
